A study of Mus musculus with 6 samples.

Results

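The genes described here are 9 cathepsins (Ctsb, Ctsc, Ctsd, Ctse, Ctsh, Ctsk, Ctsl, Ctss and Ctsz) and Lgmn, which encodes legumain. They are 10 of the 19938 genes read in macrophages sorted from liver tumours of mice. Each was picked by its symbol, and each is read by 1 probe set that the platform annotation gives to that gene alone. C57BL/6 mice bore hepa1-6 tumours, from a mouse hepatoma line, implanted in the liver. They received vehicle or PLX3397, an inhibitor of the receptor kinase CSF1R and also of KIT and FLT3, and tumour-associated macrophages (TAM) were then sorted. Each group holds 3 arrays, numbered as biological replicates. The sources used here give no dose, length of treatment, age or sorting gate. They do not say whether each array stands for a separate animal, and p-values then cover only the scatter among the arrays, which may be technical. Macrophages that had remained under the drug are what the PLX3397 arrays read. The sample descriptions also carry a second name, macrophages given LPS and IFNγ for vehicle and IL4 for PLX3397, which goes against the titles and was not used.

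Cathepsins are proteases that work mainly inside lysosomes and endosomes. Most are papain-like cysteine proteases, made as inactive proenzymes that are cut in the acid compartment. Ctsd and Ctse encode aspartic proteases of the pepsin family, and legumain is a cysteine protease of another family that cuts after asparagine and helps to process other cathepsins. Macrophages carry large amounts of these enzymes, and tumour macrophages can release them into the surrounding matrix. Cystatins and stefins block the cysteine cathepsins.

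The macrophage markers measured were above background on all arrays. Adgre1, the gene of the F4/80 antigen, was at 11.81 ± 0.027 in vehicle and 11.40 ± 0.10 with PLX3397, as log2 values (mean ± SD, n = 3 per group, as below). Csf1r was at 10.96 ± 0.019 and 11.05 ± 0.11, and Cd68 at 11.26 ± 0.081 and 11.20 ± 0.011. Lyz2, the macrophage lysozyme gene, was at 12.75 ± 0.014 and 12.55 ± 0.061, and the leukocyte gene Ptprc at 9.46 ± 0.072 and 8.95 ± 0.098. Of the 9 macrophage markers measured 2 rose and 4 fell. The rises were those of Itgam (0.97, adjusted p = 7.29e-06), the gene of CD11b, and Cd14 (0.55, adjusted p = 2.05e-04). The falls were those of Fcgr1 (-0.79), Ptprc (-0.51), Adgre1 (-0.42) and Mertk (-0.37). Their summed level was 14.38 to 14.40 in vehicle and 14.41 to 14.51 with PLX3397 (log2 of the sum), and without Itgam 14.25 on each vehicle array and 14.14 to 14.24. Correlations between arrays, taken across genes, which are not independent replicates, were 0.996 to 0.997 among vehicle arrays, 0.992 to 0.996 among PLX3397 arrays and 0.951 to 0.961 across the groups. The lowest of those among PLX3397 arrays involved replicate 3. The level of background, read from 1194 olfactory and vomeronasal receptor genes, lay between 3.52 and 3.58. All 10 cathepsin and legumain genes exceeded it on all 6 arrays.

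Of the 10 genes, 5 rose with PLX3397 (Ctsk, Ctsh, Ctsl, Ctss and Ctsd), 2 fell (Lgmn and Ctsc) and 3 did not pass the test (Ctse, Ctsb and Ctsz). The test was limma with Benjamini-Hochberg adjustment over all 19938 genes at a threshold of 0.05. Over all genes 37.8% passed, 19.6% higher and 18.3% lower. Bright genes passed more often: among those with a mean log2 value over 10, to which 7 of the 10 belong, 64.2% passed, 39.0% higher and 25.1% lower. The share of 70% called among the 10 is thus near that of other bright genes. The median change of the 10 was 0.38 on the log2 scale, beside 0.041 over all genes and 0.10 over those with a mean over 10. The groups did not overlap for 9 of the 10, beside 49.3% of all genes, dim ones included. Without PLX3397 replicate 3 the counts were again 5 higher and 2 lower.

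**Figure D1:**
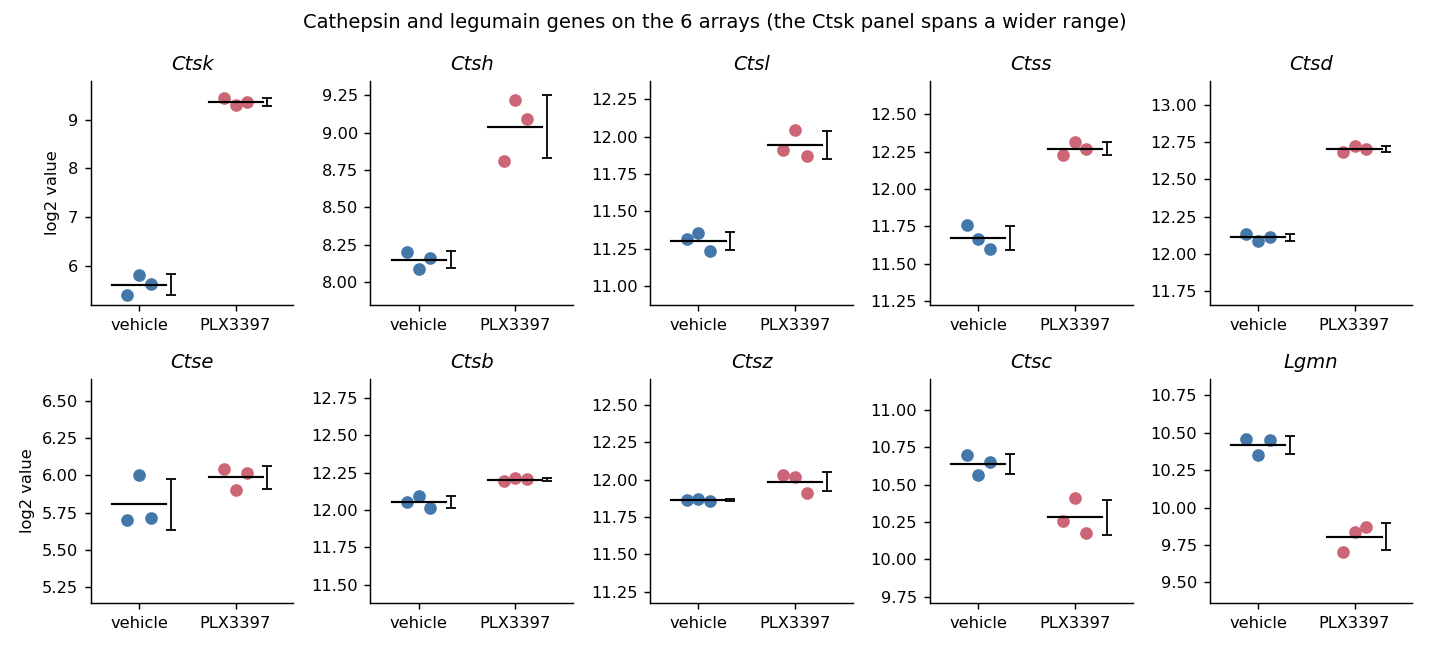
Log2 value of each cathepsin gene and Lgmn on the 3 vehicle arrays (blue) and the 3 PLX3397 arrays (red), with the group mean (line) and SD (bar beside it); no axis starts at 0, and the Ctsk panel spans a wider range than the others. The groups are separate in all panels except Ctse, where vehicle replicate 2 lies within the PLX3397 values.

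The largest change was that of Ctsk, which encodes a collagen- and elastin-cutting protease known best from osteoclasts. Ctsk read 5.40, 5.81 and 5.63 on vehicle arrays 1 to 3 and 9.45, 9.29 and 9.36 on PLX3397 arrays 1 to 3. The lowest PLX3397 array lay far above the highest vehicle array. The change was 3.75 on the log2 scale (SE 0.11, 95% interval 3.51 to 4.00, limma adjusted p = 7.46e-09), which is 13.5-fold. It ranked 46 among the rises of all genes, and ran from 3.64 to 3.85 over 15 alternative settings.

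Ctss, whose enzyme trims the invariant chain of MHC class II, rose to a smaller extent. It read 11.76, 11.66 and 11.60 in vehicle and 12.23, 12.32 and 12.27 with PLX3397. All PLX3397 values were above all vehicle values. The change was 0.60 (SE 0.080, interval 0.42 to 0.78, adjusted p = 1.96e-04), or 1.51-fold. Ctsl, which encodes another broad endopeptidase of the endosome, read 11.31, 11.35 and 11.24 in vehicle and 11.91, 12.05 and 11.87 with PLX3397. Its groups were equally separate, with a change of 0.64 (SE 0.083, interval 0.45 to 0.83, adjusted p = 1.55e-04), or 1.56-fold.

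Ctsk and Ctss lie next to each other on mouse chromosome 3 in RefSeq's gene order. The protein-coding genes around them were taken by position and not by their values. Arnt, the neighbour on the side of Ctsk, encodes a partner of hypoxia-inducible factors and had a change of 0.037 (SE 0.084, adjusted p = 0.776). Beyond it Setdb1, which encodes a histone methyltransferase, had a change of 0.098 (SE 0.092, adjusted p = 0.450). Cers2, farther on that side, had a change of 0.031 (adjusted p = 0.815). On the side of Ctss, Hormad1 was below background on all arrays, and Golph3l, which encodes a Golgi protein, rose by 0.39 (SE 0.13, adjusted p = 0.0343). Beyond it Ensa did not pass (change 0.17, adjusted p = 0.183), and the survival gene Mcl1 rose by 0.61 (SE 0.096, adjusted p = 5.46e-04). Adamtsl4, the next gene after Mcl1, rose by 1.30 (SE 0.12, adjusted p = 1.60e-05). Differences between these changes were not tested.

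**Figure D2:**
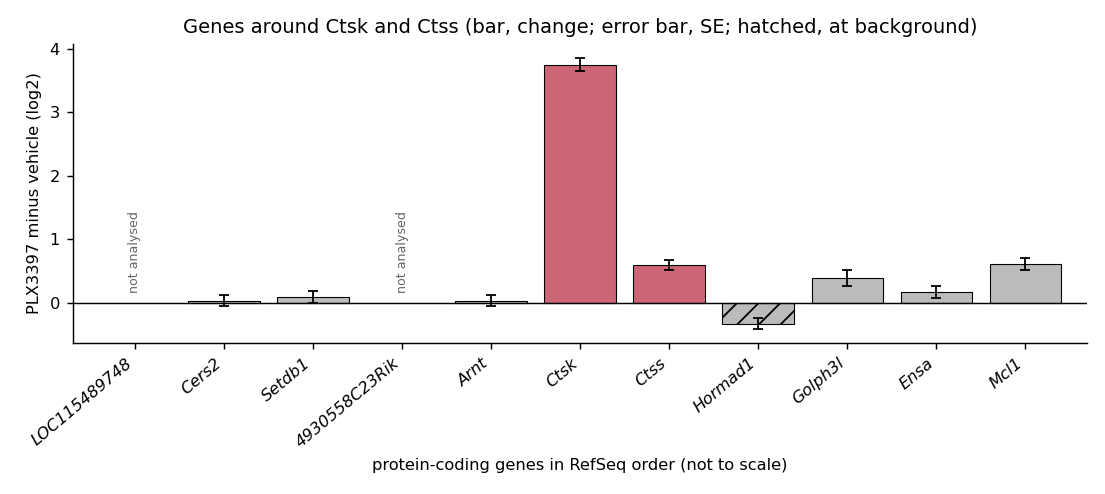
Change from vehicle to PLX3397 on the log2 scale (bars) with the SE of the limma fit for the protein-coding genes on either side of Ctsk and Ctss, in chromosome order and not to scale; hatching marks a gene below background on all arrays, and genes without a bar were not analysed here. The bar of Ctsk stands at 3.75, that of its neighbour Ctss at 0.60 and that of Arnt at 0.037.

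The sequences before the transcription start are shown for these neighbours, because they moved the same way by different amounts, and for Ctsd and Lgmn, which moved in opposite directions. They are the 250 bases before a start site on GRCm38.p6, from RefSeq, whose table held 7 of the 10 genes. Capitals mark CACGTG, the E-box core bound by the TFEB and MITF family of lysosomal gene regulators, which reads the same on both strands. Ctsk lies at chr3:95498960-95499209 on the + strand, Ctss at chr3:95526536-95526785 on the + strand, Ctsd at chr7:142387828-142388077 on the - strand, and this window of Lgmn at chr12:102439093-102439342 on the - strand.
Ctsk: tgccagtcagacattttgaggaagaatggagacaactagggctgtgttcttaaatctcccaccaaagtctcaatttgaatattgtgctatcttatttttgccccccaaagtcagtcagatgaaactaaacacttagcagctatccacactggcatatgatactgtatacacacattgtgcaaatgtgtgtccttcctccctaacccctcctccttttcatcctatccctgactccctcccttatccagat
Ctss: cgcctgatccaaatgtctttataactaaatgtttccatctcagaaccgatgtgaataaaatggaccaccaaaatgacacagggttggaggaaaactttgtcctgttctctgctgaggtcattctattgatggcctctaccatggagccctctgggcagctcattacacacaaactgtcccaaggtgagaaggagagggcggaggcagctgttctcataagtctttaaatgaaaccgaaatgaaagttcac
Ctsd: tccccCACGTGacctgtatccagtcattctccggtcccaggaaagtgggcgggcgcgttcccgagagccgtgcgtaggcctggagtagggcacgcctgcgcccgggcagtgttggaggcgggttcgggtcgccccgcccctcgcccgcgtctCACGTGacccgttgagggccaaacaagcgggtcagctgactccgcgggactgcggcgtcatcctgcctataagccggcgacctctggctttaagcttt
Lgmn: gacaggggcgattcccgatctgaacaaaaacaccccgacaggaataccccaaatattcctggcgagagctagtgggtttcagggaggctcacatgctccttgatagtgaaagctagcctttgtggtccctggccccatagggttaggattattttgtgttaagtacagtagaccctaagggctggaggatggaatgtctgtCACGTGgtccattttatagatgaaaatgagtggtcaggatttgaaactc
CACGTG occurred in 6.02% of 32851 such windows. The Ctsd window held 2 copies, beginning 245 and 98 bases before the start. The Lgmn window shown held 1, beginning 49 bases before its start, and the window of the other Lgmn start held none. That of Ctsl held 1, at 236 bases. The windows of Ctsc, Ctsk, Ctss and Ctsz held none. Of the genes with a copy, Ctsd and Ctsl rose and Lgmn fell, while of those without, Ctsk and Ctss rose, Ctsc fell and Ctsz did not pass. The AP-1 letters TGANTCA, searched on both strands, were in none of the windows of these genes and in 6.75% of all windows. The PU.1 letters GAGGAAGT, searched likewise, were in the Ctsc window, beginning 151 bases before the start, and in 2.44% of all windows. These motifs did not overlap. A match is a match of letters and not a measured binding site.

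Ctsb, a gene of an abundant endopeptidase that also trims dipeptides, did not pass the test. It read 12.05, 12.09 and 12.01 in vehicle and 12.19, 12.22 and 12.20 with PLX3397. The groups did not overlap, but the change was 0.15 (SE 0.075, interval -0.015 to 0.32, adjusted p = 0.146). The call depended on the setting, since a variance prior with a trend and robust fitting gave an adjusted p of 0.0354, and quantile normalisation turned the change to -0.048 (adjusted p = 0.664).

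Among the exopeptidase genes Ctsh rose, Ctsc fell and Ctsz did not pass. Ctsh, the gene of an aminopeptidase, read 8.20, 8.09 and 8.16 in vehicle and 8.81, 9.22 and 9.09 with PLX3397. PLX3397 replicate 1 was the lowest of its group and still above every vehicle array. The change was 0.89 (SE 0.11, interval 0.65 to 1.13, adjusted p = 9.49e-05), or 1.85-fold.

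Ctsc encodes the dipeptidyl peptidase that activates the granule serine proteases of neutrophils, mast cells and cytotoxic lymphocytes. It read 10.70, 10.56 and 10.65 in vehicle and 10.26, 10.41 and 10.18 with PLX3397. All PLX3397 arrays were below all vehicle arrays, and Ctsc fell by 0.36 (SE 0.088, interval -0.55 to -0.16, adjusted p = 0.00929), which is 1.28-fold lower. Without PLX3397 replicate 3 its change was -0.30 (adjusted p = 0.0290). The genes of the proteases that it activates were mostly at background. Of 14 measured, 12 were below background on all arrays, and limma called 0 higher and 0 lower, with 1 at an unadjusted p below 0.05. When all arrays were set to a common median, 1 was called lower.

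Ctsz, the gene of a carboxypeptidase, read 11.86, 11.87 and 11.86 in vehicle and 12.03, 12.02 and 11.91 with PLX3397. The groups did not overlap, yet the change of 0.12 did not pass (SE 0.077, interval -0.048 to 0.29, adjusted p = 0.248), and quantile normalisation turned it to -0.10 (adjusted p = 0.303).

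Of the aspartic protease genes Ctsd rose and Ctse did not pass. Ctsd, whose enzyme is a main lysosomal endopeptidase, read 12.13, 12.09 and 12.12 in vehicle and 12.68, 12.72 and 12.70 with PLX3397. Its groups were separate with little spread in either, and the change was 0.59 (SE 0.074, interval 0.42 to 0.75, adjusted p = 1.20e-04), or 1.50-fold. Ctse, an endosomal protease gene known from stomach and from antigen-presenting cells, read 5.70, 6.00 and 5.71 in vehicle and 6.04, 5.90 and 6.02 with PLX3397. Vehicle replicate 2 lay among the PLX3397 values, so the groups overlapped. The change of 0.18 did not pass (SE 0.10, interval -0.042 to 0.40, adjusted p = 0.191). Without vehicle replicate 2 it was 0.28 with an adjusted p of 0.0464. Whether Ctsd and Ctse differ in their change was not tested.

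Lgmn had the largest fall of the 10. It read 10.46, 10.35 and 10.45 in vehicle and 9.70, 9.84 and 9.87 with PLX3397. Every PLX3397 array was below every vehicle array, and Lgmn fell by 0.62 (SE 0.083, interval -0.80 to -0.43, adjusted p = 2.02e-04), which is 1.53-fold lower. Its fall ranked 1825 among the falls of all genes. In RNA from a sorted population, fewer cells carrying a transcript and less of it per cell cannot be told apart, for Lgmn as for the other genes.

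**Figure D3:**
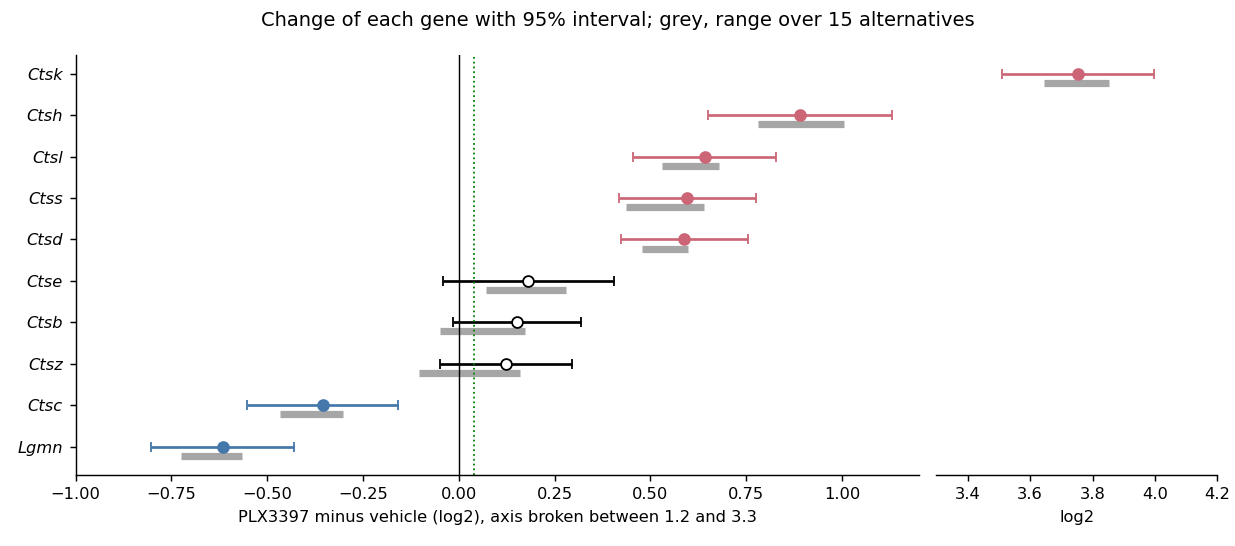
Change from vehicle to PLX3397 on the log2 scale for each gene (point) with its 95% interval from the limma fit; filled points passed the test (red higher, blue lower), grey bars span the 15 alternative settings, the dotted line is the median of all genes, and the axis is broken. The intervals of Ctsh, Ctsl, Ctss and Ctsd overlap each other, and of the grey bars those of Ctsb and Ctsz cross 0.

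Single arrays departed from the mean of their group by at most 0.23 on the log2 scale among the 10 genes. The largest departures were those of PLX3397 replicate 1 for Ctsh (-0.23) and vehicle replicate 1 for Ctsk (-0.22). PLX3397 replicate 2 was above the mean of its group for 8 of the 10 genes, and PLX3397 replicate 1 was below it for 7. On each of the other 4 arrays 4 to 6 of the genes lay above the mean of the group.

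The genes whose profile over the 6 arrays was most like that of Ctsk, by Euclidean distance between profiles centred on their own means, were Egr2, Slco4a1 and Scd2. The transcription factor gene Egr2 rose from 5.54 ± 0.20 to 9.21 ± 0.087 (distance 0.13). The transporter gene Slco4a1 rose from 4.69 ± 0.13 to 8.43 ± 0.039 (distance 0.21), and the desaturase gene Scd2 from 7.19 ± 0.18 to 11.01 ± 0.082 (distance 0.23). The profiles nearest to that of Lgmn were those of Snu13 (distance 0.045), Txnl4b (0.094) and Pck2 (0.11). Snu13 and Txnl4b encode splicing proteins and Pck2 the mitochondrial form of phosphoenolpyruvate carboxykinase. With 6 arrays in 2 groups, such a distance reflects mainly the difference between groups.

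Other cathepsin genes also went both ways. Of 6 measured 2 rose and 1 fell, with a median change of 0.18. Napsa, the gene of the aspartic protease napsin A, rose from 5.81 ± 0.12 to 8.03 ± 0.11 (change 2.22, SE 0.094, adjusted p = 7.64e-08), and Ctsf from 4.96 ± 0.12 to 5.41 ± 0.13. Ctso fell from 7.37 ± 0.049 to 6.40 ± 0.12 (change -0.97, SE 0.086, adjusted p = 1.08e-05). Ctsg and Ctsw, known from neutrophils and cytotoxic lymphocytes, were below background on all arrays. The cathepsins of the mouse placenta, close relatives of Ctsl, gave little signal. Of 7 measured 5 were below background on all arrays, and 1 rose. That gene, Ctsll3, was below background in vehicle and at 3.73 ± 0.14 with PLX3397, at least 1.16-fold higher (adjusted p = 0.00963). Here and below, such a bound sets the PLX3397 mean against the background level of the vehicle arrays.

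Inhibitor genes held the largest rise of these lists. Of 11 cystatin, stefin and serpin genes 4 rose and 2 fell, with a median change of 0.21. Stfa3, of a stefin family with near-identical members that can share probes, was below background in vehicle and at 11.59 ± 0.21 with PLX3397, at least 268-fold higher (adjusted p = 1.15e-10). Cst7, the gene of cystatin F, an inhibitor that acts within lysosomes, rose from 5.24 ± 0.16 to 7.58 ± 0.17 (change 2.34, SE 0.11, adjusted p = 1.85e-07). Cstb, the gene of the cytosolic inhibitor stefin B, fell by 0.38 (SE 0.10, adjusted p = 0.0116), and Serpinb6a fell from 8.59 ± 0.10 to 8.17 ± 0.12.

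Genes that sort or mature lysosomal enzymes went both ways as well. Of 16 measured 7 rose and 5 fell, with a median change of 0.11. The count of rises was 3 with all arrays set to a common median. It was 4 without any one of vehicle replicate 1, vehicle replicate 2, PLX3397 replicate 1 and PLX3397 replicate 2. Psap, the prosaposin gene, rose from 11.56 ± 0.033 to 12.53 ± 0.026 (change 0.98, SE 0.075), and the endocytic receptor gene Lrp1 rose by 0.69. Gnptab, whose enzyme makes the mannose 6-phosphate tag of lysosomal hydrolases, fell from 8.33 ± 0.039 to 7.35 ± 0.026 (change -0.99, SE 0.075), and the retromer gene Vps35 fell by 0.75.

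Of 12 genes of the TFEB family and its regulators 3 rose and 4 fell, with a median change of -0.033. Mitf fell from 8.32 ± 0.19 to 7.16 ± 0.037 (change -1.16, SE 0.10, adjusted p = 1.03e-05), and by 0.77 when its 2 probe sets were averaged. Fnip1, which encodes a folliculin partner, fell by 0.80. Tfec, the family member known from macrophages, rose from 6.37 ± 0.18 to 7.35 ± 0.27 (change 0.98, SE 0.14, adjusted p = 2.80e-04). Flcn, the folliculin gene, rose by 0.95. Tfeb and Tfe3, chosen after their values were seen, had changes of 0.0035 (SE 0.11) and -0.081 (SE 0.081) and did not pass.

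Of 27 other lysosomal hydrolase genes 14 rose and 4 fell, with a median change of 0.28. Glb1, the beta-galactosidase gene, rose from 7.38 ± 0.025 to 9.14 ± 0.12 (change 1.76, SE 0.086), and the fucosidase gene Fuca1 from 8.35 ± 0.095 to 9.83 ± 0.068 (change 1.48, SE 0.085). Acp5, the tartrate-resistant acid phosphatase gene, fell from 11.35 ± 0.010 to 9.78 ± 0.19 (change -1.56, SE 0.10), and the iduronate sulphatase gene Ids fell by 1.53.

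Of 14 genes listed for lysosomal membrane proteins 7 rose and 0 fell by limma, and 8 had an unadjusted p below 0.05. The 7 include Npc2 (0.46), whose protein is soluble. The median change of the 14 was 0.24. Under 6 of the alternatives, among them a common median on all arrays and either filter on dim genes, 1 fell. Slc29a3, a nucleoside transporter gene, rose by 1.13 (SE 0.077), and Laptm5 from 10.98 ± 0.025 to 12.08 ± 0.075. Of 17 subunit genes of the V-ATPase, the proton pump that acidifies the lysosome, 10 rose and 2 fell, with a median change of 0.39. Atp6v0d2, a subunit known from osteoclasts and macrophages, rose from 7.24 ± 0.079 to 9.63 ± 0.14 (change 2.38, SE 0.095, adjusted p = 5.01e-08), and Atp6v0a1 rose by 1.04. The falls were those of Atp6v1c1 (-0.41) and Atp6v1h (-0.24, adjusted p = 0.0442), and the latter did not pass when any 1 of the 6 arrays was left out.

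**Figure D4:**
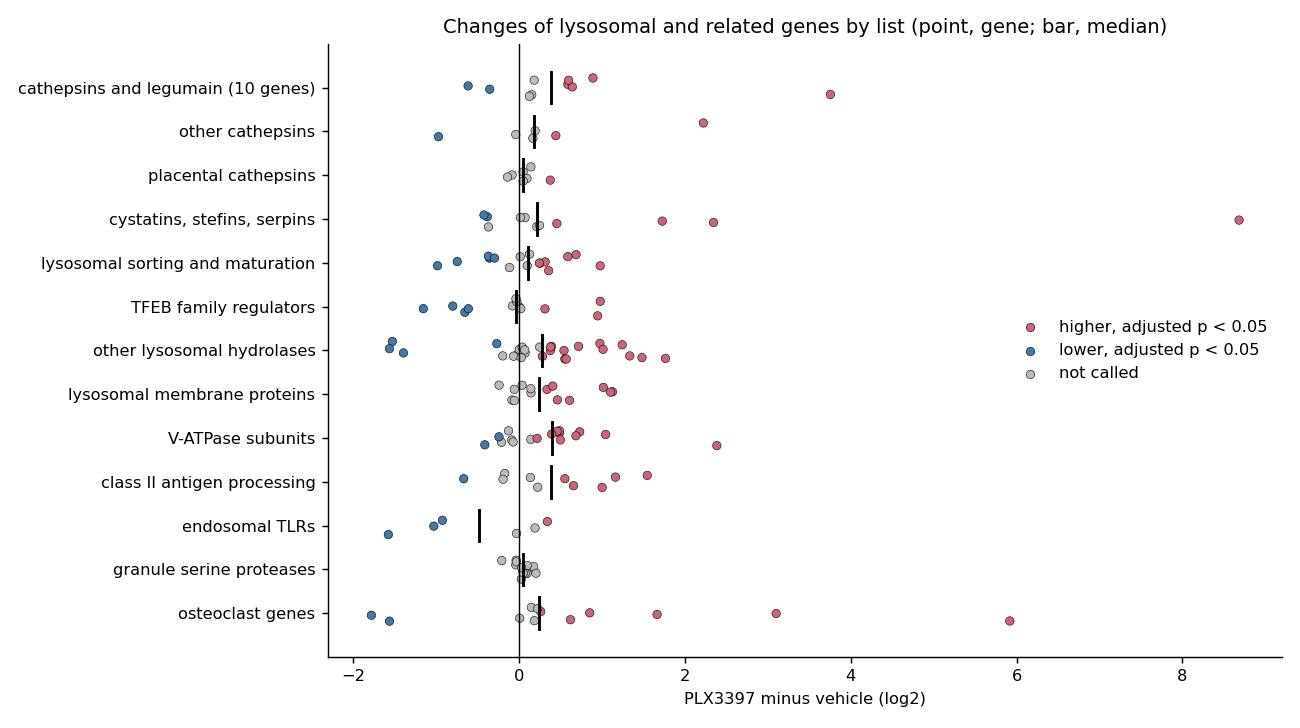
Change from vehicle to PLX3397 on the log2 scale for each measured gene (point) of the cathepsin and legumain genes and of 12 related lists, with the median of each list (bar) and the call at an adjusted p below 0.05 (red higher, blue lower, grey not called). Ctsk at 3.75 lies apart from the other 9 genes of its row, and Stfa3 at 8.68 and Dcstamp at 5.92 lie farthest to the right. Stfa3 was below background in vehicle, so its position is not an exact change.

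Genes that accompany Ctsk in osteoclasts went both ways. Of 12 measured 6 rose and 2 fell, with a median change of 0.24. Dcstamp, needed for fusion of osteoclast precursors, rose from 4.49 ± 0.22 to 10.41 ± 0.20 (change 5.92, SE 0.13, adjusted p = 1.73e-09), and the integrin gene Itgb3 rose from 4.76 ± 0.024 to 7.86 ± 0.35. Tnfrsf11a, which encodes the RANK receptor, fell from 8.18 ± 0.12 to 6.40 ± 0.13 (change -1.78, SE 0.097, adjusted p = 4.13e-07). The other fall was that of Acp5, given above.

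In the class II pathway that Ctss and Lgmn serve, 5 of 10 genes rose and 1 fell, with a median change of 0.39. These counts leave out the probe set shared by H2-DMb1 and H2-DMb2, which fell by 0.82 (SE 0.094, limma adjusted p = 4.71e-04 over the 1621 probe sets with several symbols). The reductase gene Ifi30 rose from 8.95 ± 0.12 to 10.49 ± 0.12 (change 1.54, SE 0.096) and H2-Oa by 1.16. Sppl2a, whose protease cuts the last membrane stub of the invariant chain, fell from 10.03 ± 0.041 to 9.36 ± 0.11 (change -0.67, SE 0.085). Cd74, the invariant chain gene itself, chosen after its value was seen, rose from 9.73 ± 0.075 to 10.28 ± 0.10 (change 0.55, SE 0.086, adjusted p = 5.45e-04). With all arrays set to a common median, 3 genes fell.

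Of the 6 genes of endosomal Toll-like receptors and their chaperone, receptors that lysosomal proteases cut, 3 fell and 1 rose, with a median change of -0.48. Tlr8 fell from 9.24 ± 0.13 to 7.66 ± 0.16 (change -1.58, SE 0.11, adjusted p = 1.66e-06), and Tlr3 fell by 1.03. Tlr9 rose by 0.34 (SE 0.10, adjusted p = 0.0253). The change of Tlr9 did not pass with all arrays set to a common median (adjusted p = 0.104) and without any one of the vehicle arrays or PLX3397 replicate 2 (adjusted p = 0.0505 to 0.0890).

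Over the 12 lists together, 60 of 150 genes rose and 23 fell, with a median change of 0.14. Over all genes 19.6% were called higher and 18.3% lower. Among genes with a mean over 10 the shares were 39.0% and 25.1%, and between 8 and 10 they were 32.0% and 34.0%. Ctsg and Acp5 are each in 2 of the lists and were counted once. In the whole table dim genes were called less often than bright ones, from 11.3% below a mean of 4 to 66.0% between 8 and 10.

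Markers of other cells were measured beside these changes. The summed level of 10 endothelial markers was 7.69 to 7.79 in vehicle and 8.89 to 8.95 with PLX3397, and without Kdr 7.06 to 7.09 and 7.81 to 7.96. Of these 5 were higher, and Tek was below background on all arrays. Here and below the marker left out is the one whose linear level differed most between the groups. That of 10 dendritic cell markers was 6.94 to 7.04 and 7.93 to 8.74, and without Ccr7 6.74 to 6.77 and 6.96 to 7.04. Of these 4 were called higher, among them Itgae, which with Xcr1, Clec9a and Siglech was below background on all arrays. The summed level of 7 B cell and plasma cell markers was 7.32 to 7.40 and 8.23 to 8.32. Without Cd22 it was 6.24 to 6.26 and 6.49 to 6.62. Of these 4 were called higher, among them Ms4a1 and Cd79a, which with Jchain were below background on all arrays. Fibroblasts also make Ctsk, and 10 fibroblast and stellate cell markers summed to 9.05 to 9.57 and 9.11 to 10.33. Without Dcn they summed to 8.55 to 8.91 and 8.46 to 9.54. Limma called 0 higher and 2 lower (Col1a1 and Col1a2), and 4 had an unadjusted p below 0.05. The 4 include rises of Dcn (0.95) and Pdgfrb (0.29) that did not pass. Acta2 read 6.94, 7.01 and 8.79 on PLX3397 arrays 1 to 3. Neutrophil markers summed to 9.68 to 9.86 and 9.24 to 9.98, and without Csf3r 7.90 to 7.98 and 8.70 to 9.53, with 3 of 10 higher and 1 lower. Ly6g and Ltf, both called higher, were among 5 of these markers below background on all arrays. Mast cell, basophil and eosinophil markers summed to 6.99 to 7.37 and 6.69 to 6.74, and without Ccr3 6.38 to 6.40 and 6.52 to 6.56, with 1 of 9 higher and 1 lower. T and NK cell markers summed to 6.75 to 6.82 and 6.80 to 6.89, with none of 9 called by limma and 1 at an unadjusted p below 0.05. Hepatocyte and hepatoma markers summed to 7.09 to 7.13 and 7.06 to 7.32, with none of 9 called and 0 at an unadjusted p below 0.05. Erythroid markers summed to 6.17 to 6.29 and 6.44 to 6.45, with 1 of 5 higher. Below background on all arrays were 5 mast cell, basophil and eosinophil markers and 5 T and NK cell markers. So were 4 hepatocyte and hepatoma markers, 1 fibroblast and stellate cell marker and 1 erythroid marker. The part of other cells in the changes of the cathepsin genes and Lgmn was not tested.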

How the data were processed

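Gene expression was measured on 6 Mouse Gene 1.0 ST arrays, 3 per group, grouped by sample title. Values are log2 as the authors deposited them, from 1.57 to 13.47, the base being read from that range. MAS5 is named without version or role, per the submitters' processing notes. Other steps are not stated there. Array medians ran from 4.21 to 4.35, and values were used as deposited. Of 28941 probe sets 21789 carry 1 gene symbol, 1621 several and 5531 none. The brightest probe set per gene left 19938 genes.

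PLX3397 minus vehicle was fitted by limma 3.58.1 (lmFit and eBayes, two-sided; R 4.3.3). The code was tested on simulated data. Background was the 95th percentile of the receptor genes on each array. An exact permutation test of 1 gene cannot go below 0.1 with 3 arrays against 3, and the number of arrays limits the precision. The genes, the 12 related lists (152 of 170 entries measured) and the 10 marker lists (88 of 95) were chosen with earlier results of these data known. In each list the named genes are the 2 largest rises and falls that passed the test without overlap of the groups. Besides these, the macrophage markers, the 3 nearest profiles of Ctsk and of Lgmn, and neighbours of Ctsk and Ctss are named. So are Npc2, markers of other cells, probe sets with several symbols, and genes given for their level at background or said to be chosen later. Alternatives covered normalisation, filters on dim genes, a replicate block, variance settings, array weights, probe set averaging, the threshold and leaving out each array. Marker sums without 1 marker were added after seeing the data. No batch was given.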

Additional observations from a re-analysis of the deposited data

How the results depend on the processing

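Over the 15 alternatives 5 or 6 of the 10 genes rose and 2 fell. The sixth was Ctsb (0.15) with a variance trend and robust prior, and Ctse without vehicle replicate 2. The change of Ctse ran from 0.13 to 0.28 when single arrays were left out. Quantile normalisation turned the change of Ctsb to -0.048 and the change of Ctsz to -0.10. With each array centred on its median, the median over all genes went from 0.041 to -0.069. The median change of the 10 genes was then 0.27, the change of Csf1r -0.019, those of Ctsb, Ctse and Ctsz 0.041, 0.071 and 0.013, and 34.2% of calls were higher, against 51.7%. The genes called higher over all genes numbered 3900 in the values as deposited, 2455 after centring and 2475 at a threshold of 0.01. With the replicate block 5 of the 10 rose and 2 fell, and there were 3646 genes called higher over all genes and 3508 genes called lower over all genes. Same-numbered arrays did not deviate together (correlations -0.010, 0.0080, -0.013). Such values cannot settle whether the numbers pair the samples. Of the counts for lists and the changes of their named genes, 996 were classed as the same under an alternative. A count was so classed when equal or close to the main count, and a change when it kept direction and call. Of the rest, 32 counts moved, 17 changes lost their call, 3 gained one and 1 turned.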
